A study of Mus musculus with 6 samples.

Results

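Serine protease inhibitors of the serpin family and the genes of the plasminogen activator system were followed in mouse dorsal root ganglia after kidney injury. The genes were the rows of the deposited count table named Serpine2, Serpina3n, Serpinb1a, Serpinf1, Serping1, Serpini1, Plat, Plau and Plaur, 9 of 57180 genes in all, and each was found once. The ganglia, which hold the cell bodies of sensory neurons, were taken from thoracic level 8 to lumbar level 2 of wild-type (WT) mice, 24 h after surgery under Zoletil (55 mg/kg). In 3 I/R (ischemia-reperfusion) mice the pedicle of the left kidney had been clamped for 28 min and released, with removal of the right kidney. The 3 sham mice had the same surgery without the clamp, although the labels do not state the removal of the right kidney for them separately. The comparison asks how the ganglia differ after renal I/R.

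Serpins trap a serine protease by offering it a bait loop. The enzyme cuts the loop and stays bound to the inhibitor, and both are lost. A few members of the family have given up inhibition and act as hormones, trophic factors or chaperones. The plasminogen activators tPA (Plat) and urokinase (Plau) turn plasminogen into plasmin, which dissolves fibrin and degrades matrix, and the urokinase receptor (Plaur) holds urokinase at the cell surface. In peripheral nerve this system is known for its part in axon regrowth and in clearing fibrin after injury.

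Plaur and Serpinb1a rose in the ganglia of I/R mice, and no gene of the 9 was called lower. Plaur stood 2.50-fold and Serpinb1a 1.71-fold higher. The other 7 did not pass the test, and among them Serpina3n and Plat stood higher and Serpine2 and Serping1 lower in I/R, with no overlap between the groups. All 9 passed the filter on low counts. Of the 16346 genes tested over the whole table with edgeR's quasi-likelihood test, 1.15% were called at an adjusted p under 0.05, 0.722% higher and 0.428% lower, against 2 of the 9 higher and 0 lower. DESeq2 called 3 higher and limma-voom 2, and neither called any lower. With an unadjusted edgeR p under 0.05 there were 6 of the 9, 4 higher and 2 lower, against 10.5% of all genes tested. The groups did not overlap for 17.1% of all genes tested, with I/R higher for 9.23% and lower for 7.83%, against 6 of the 9, 4 with I/R higher and 2 with I/R lower. The median log2 fold change of the 9 was 0.10, and that of all genes tested was 0.00.

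The libraries held between 19092650 and 22010227 counts. Sensory neuron markers such as Calca, Scn10a and Prph were abundant, with a summed level of 10630 to 11970 CPM (counts scaled by the size of each library) in sham and 11480 to 12470 CPM in I/R mice, and 0 of 12 were called by edgeR, by DESeq2 or with limma-voom (1 had an unadjusted p under 0.05). A summed skeletal muscle list stood at 527, 53.9 and 312.5 CPM in sham libraries 1 to 3 and at 43.2 to 68.7 CPM in I/R mice. A summed spinal cord and oligodendrocyte list stood at 56.0, 14.9 and 38.1 CPM in sham libraries 1 to 3 and at 15.5 to 20.3 CPM in I/R mice. In both lists the same 2 sham libraries, sham 1 and sham 3, stood apart. The fit without those 2 libraries, and one with the muscle level as a covariate, are given beside each named gene whose call they ended. In ganglia taken whole, fewer cells of a type and less RNA per cell cannot be told apart.

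Plaur encodes the urokinase receptor, a protein anchored in the outer membrane leaflet that also binds the matrix protein vitronectin. Its level was 5.06, 6.70 and 5.71 CPM in sham libraries 1 to 3 and 13.8, 15.5 and 14.4 CPM in I/R libraries 1 to 3. The lowest I/R library stood above the highest sham library by more than the range within either group. The mean rose from 5.82 ± 0.828 to 14.6 ± 0.863 CPM (SD, n = 3 mice in each group), a log2 fold change of 1.32 ± 0.14 (SE) with adjusted p = 0.00138 in edgeR's test. The 95% interval of the fold ran from 2.02 to 3.10. Plaur was called whichever single library was left out (edgeR adjusted p 0.00182 to 0.0169). With the muscle covariate its log2 fold change was 1.11, and it passed the threshold narrowly (edgeR adjusted p = 0.0436). Against sham 2 alone the log2 fold change was 1.10, and the call was lost (edgeR adjusted p = 0.12).

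Promoter sequences were matched by symbol for 5 of the 9 genes in RefSeq's table (build GRCm38.p6). They are shown for Plaur, the gene with the clearest rise, and for Serpina3n, which also stood higher, as the stretch that ends at the base before the annotated start. Capitals mark matches to TGANTCA, the element bound by AP-1, the family of Jun, Fos and some ATF proteins.
Plaur (chr7:24462233-24462482, plus strand): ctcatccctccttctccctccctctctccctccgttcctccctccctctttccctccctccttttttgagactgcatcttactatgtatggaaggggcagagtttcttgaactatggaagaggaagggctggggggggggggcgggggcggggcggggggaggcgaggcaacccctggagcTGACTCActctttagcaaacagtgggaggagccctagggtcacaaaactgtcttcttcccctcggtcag
Serpina3n (chr12:104406458-104406707, plus strand): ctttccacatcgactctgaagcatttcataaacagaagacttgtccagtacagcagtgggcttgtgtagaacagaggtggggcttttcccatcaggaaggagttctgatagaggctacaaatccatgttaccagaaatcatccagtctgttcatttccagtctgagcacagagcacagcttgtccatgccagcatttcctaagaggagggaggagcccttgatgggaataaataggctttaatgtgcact
The Plaur promoter held 1 match to TGANTCA on either strand, which begins at -69 from the start. It also held 3 matches to GGGCGG, the element bound by SP1, at -111, -105 and -100, of which the last 2 share a base. Serpina3n held no match to either. Among 32851 RefSeq promoter windows, which run a little past the start, 7.81% held TGANTCA and 35.7% held GGGCGG on either strand. The other 3 matched genes, Serpine2, Serpinf1 and Serpini1, held no TGANTCA. Serpine2 held 6 matches to GGGCGG, and Serpinf1 and Serpini1 held 0. A match is a run of letters and no measure of binding.

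The activators themselves differed less between the groups. Plau, the urokinase gene, stood at 9.08, 9.503 and 8.64 CPM in sham mice and 9.98, 8.77 and 10.04 CPM in I/R mice, and the groups overlapped. Its log2 fold change was 0.08 (edgeR adjusted p = 0.865), with a 95% interval of the fold from 0.873 to 1.28. Plat, the tPA gene, which sensory neurons are known to make, stood at 22.0, 23.2 and 18.4 CPM in sham mice and at 27.4, 27.7 and 24.9 CPM in I/R mice. All 3 I/R libraries lay above all 3 sham libraries, by less than the range within sham. The log2 fold change was 0.33 ± 0.12 (edgeR adjusted p = 0.334), with an interval of the fold from 1.05 to 1.51.

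Scaled to gene length as well as library size (TPM), Plau and Plaur lay side by side in sham, at 9.88 ± 0.776 and 9.85 ± 1.55 TPM, and their libraries overlapped. In I/R, Plau stood at 10.5 ± 0.970 and Plaur at 24.9 ± 2.38 TPM, close to Plat at 27.1 ± 1.11 TPM. Plat had been at 21.4 ± 3.20 TPM in sham. The receptor transcript was thus at the level of its ligand's transcript in sham and above it in each I/R library.

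**Figure D1:**
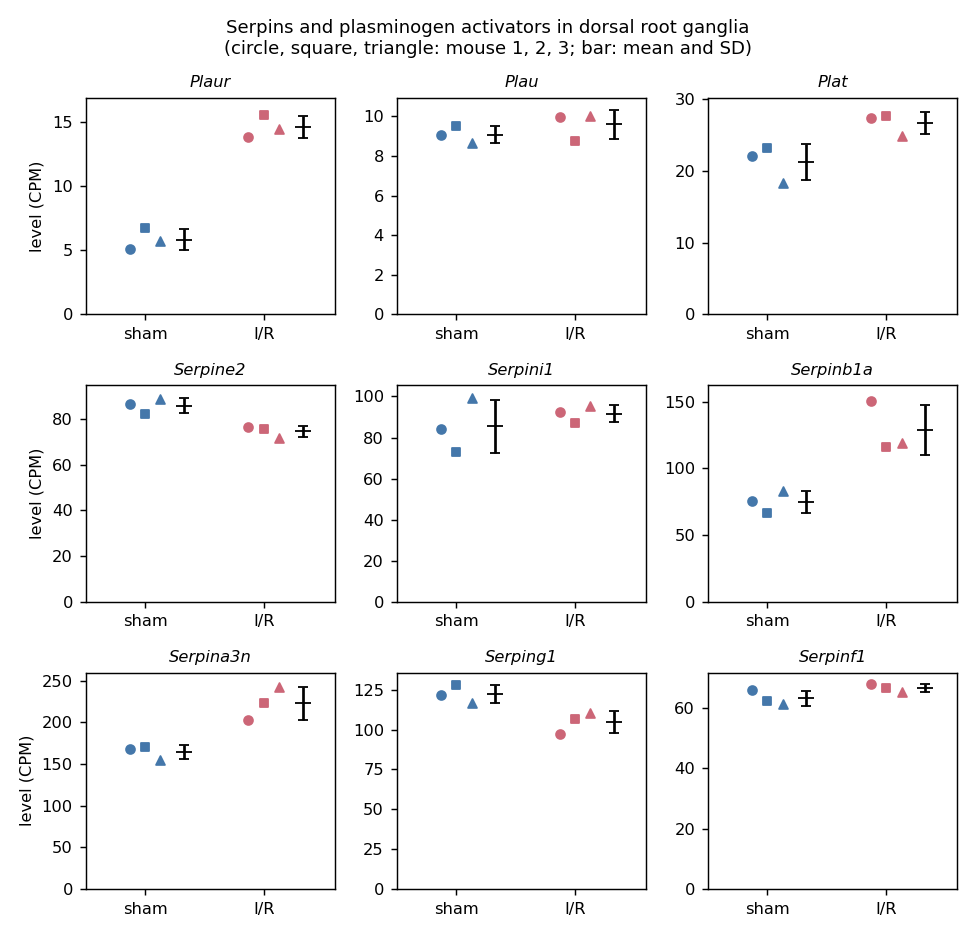
Level of each of the 9 genes (CPM, linear axes from 0) in the 3 sham (blue) and 3 I/R (red) libraries, with the group mean and SD beside the points. Plaur stood at 5.06 to 6.70 CPM in sham mice and at 13.8 to 15.5 CPM in I/R mice, and Serpinb1a at 66.4 to 82.8 and 116 to 150 CPM, while Plau, Serpini1 and Serpinf1 overlapped between the groups.

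Among the 9 genes are 2 serpins that inhibit plasminogen activators, and neither passed the test. Serpine2 encodes protease nexin-1, a glial and neuronal inhibitor of thrombin, urokinase and tPA. It stood at 86.6, 82.1 and 88.9 CPM in sham mice and at 76.4, 75.5 and 71.9 CPM in I/R mice. Every I/R library lay below every sham library, and the spread within each group was small (SD 3.45 and 2.39 CPM). The log2 fold change was -0.20 ± 0.09 (edgeR adjusted p = 0.460), and the interval of the fold, 0.759 to 0.995, ended just under 1. Serpini1 encodes neuroserpin, a tPA inhibitor secreted by neurons. It stood at 84.3, 72.9 and 99.0 CPM in sham mice and 92.4, 87.0 and 95.2 CPM in I/R mice. The I/R values lay inside the sham range, with a log2 fold change of 0.10 (edgeR adjusted p = 0.823).

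Serpinb1a encodes an inhibitor that stays inside cells and blocks the neutrophil enzymes elastase, cathepsin G and proteinase 3. It stood at 75.7, 66.4 and 82.8 CPM in sham mice and at 150, 116 and 119 CPM in I/R mice. The groups did not overlap, and I/R 1 stood above the other 2 I/R libraries. The mean rose from 75.0 ± 8.23 to 128.5 ± 18.9 CPM, a log2 fold change of 0.78 ± 0.13 (edgeR adjusted p = 0.0177), with an interval of the fold from 1.41 to 2.09. The call was lost when any one of sham 1, sham 2, I/R 2 and I/R 3 was left out (edgeR adjusted p 0.0594 to 0.12), at log2 fold changes of 0.70 to 0.83, against sham 2 alone (0.93, edgeR adjusted p = 0.212), and with the muscle covariate (0.96, 0.058). Serpinb1b, a close copy, had 181 to 248 counts per sham library and 223 to 252 per I/R library, and how the authors' counting split shared reads is not given in the sources used here. With Serpinb1a, Serpinb1b and Serpinb1c summed, the log2 fold change was 0.70 (edgeR adjusted p = 0.0312).

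The genes of the neutrophil proteases named above as blocked by Serpinb1a were near the limit of detection. Elane (elastase) had at most 6 counts in any library, Ctsg (cathepsin G) 2 and Prtn3 (proteinase 3) 12, and none passed the filter on low counts. The summed neutrophil and monocyte list stood at 11.95 to 17.5 CPM in sham mice and 9.81 to 14.1 CPM in I/R mice, with 0 of its 7 tested members called by any of the 3 tools and 1 at an unadjusted p under 0.05. The summed macrophage list stood at 81.0 to 86.6 CPM in sham mice and at 91.5 to 94.8 CPM in I/R mice. EdgeR and DESeq2 each called 1 of its 11 members higher, and limma-voom called 0. Unadjusted edgeR p was under 0.05 for 4 of the 11, 4 higher and 0 lower. The list of injured sensory neurons stood at 387 to 400.5 CPM in sham mice and 765 to 1014 CPM in I/R mice, with 8 of 10 called higher. No marker of these 3 lists was at 0 in all libraries, and the part of any of these cells in the rise of Plaur or Serpinb1a was not tested.

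Serpina3n, the most abundant of the 9, is a secreted acute phase inhibitor of granzyme B and leukocyte elastase that is related to human antichymotrypsin. It stood at 168, 170 and 154.5 CPM in sham mice and at 203, 223 and 243 CPM in I/R mice. Every I/R library lay above every sham library, yet the gene missed the threshold, with a log2 fold change of 0.44 ± 0.10 (edgeR adjusted p = 0.0782) and an interval of the fold from 1.17 to 1.58. DESeq2 (adjusted p = 0.0118) and edgeR without the filter on low counts (adjusted p = 0.0216) called it higher.

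The gene belongs to a cluster of closely related copies, so its value depends on how shared reads were assigned. Serpina3g, the next most abundant copy, stood at 76.3 ± 4.68 CPM in sham mice and 75.1 ± 3.90 CPM in I/R mice (log2 fold change -0.02, edgeR adjusted p = 0.954). Serpina3i rose from 3.24, 3.20 and 3.45 CPM in sham mice to 5.19, 6.15 and 6.98 CPM in I/R mice (log2 fold change 0.89 ± 0.17, edgeR adjusted p = 0.0373). That call was lost when any library but I/R 1 was left out (edgeR adjusted p 0.0867 to 0.16), against sham 2 alone (0.448), with the muscle covariate (0.46) and with limma-voom (0.0502). With all copies of the cluster summed, the log2 fold change was 0.31 (edgeR adjusted p = 0.191).

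Serping1 and Serpinf1 are secreted serpins known from connective tissue and blood plasma. Serping1 encodes C1 inhibitor, which blocks the first complement proteases and the contact system that frees bradykinin. It stood at 122, 128 and 117 CPM in sham mice and at 97.1, 107 and 110 CPM in I/R mice. Every I/R library lay below every sham library, with a log2 fold change of -0.22 ± 0.09 (edgeR adjusted p = 0.436). Serpinf1 encodes PEDF, a trophic and antiangiogenic factor that inhibits no protease. It stood at 65.9, 62.2 and 61.1 CPM in sham mice and 67.9, 66.5 and 65.2 CPM in I/R mice. The groups overlapped, and the interval of the fold ran from 0.921 to 1.21 (edgeR adjusted p = 0.816).

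Their partners were measured in part. Of 14 genes of the contact system and the C1 proteases, 5 passed the filter on low counts and 0 were called higher or lower by edgeR, by DESeq2 or with limma-voom (median log2 fold change 0.01). With an unadjusted p under 0.05 there was 1, C1s1, which encodes the complement protease C1s and stood at 13.6 ± 0.774 CPM in sham mice and 10.2 ± 0.972 CPM in I/R mice (edgeR adjusted p = 0.211). Bdkrb2, the bradykinin receptor of sensory neurons, stood at 8.94 ± 0.740 and 9.97 ± 0.664 CPM (edgeR adjusted p = 0.724). Of 5 genes named as PEDF receptors edgeR, DESeq2 and limma-voom called none, with 0 at an unadjusted p under 0.05. The closest to the threshold, Plxdc1, had a log2 fold change of -0.29 (edgeR adjusted p = 0.561).

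In length-scaled terms the order in sham was Serpina3n (203 ± 16.9 TPM), Serping1 (176 ± 13.4), Serpinb1a (99.3 ± 8.09), Serpine2 (98.8 ± 2.12), Serpinf1 (87.7 ± 5.53), Serpini1 (53.0 ± 6.44), Plat, Plau and Plaur. Serpina3n and Serping1 overlapped between libraries, as did Serpinb1a and Serpine2, and Plau and Plaur, while the other neighbours in that order did not. In I/R, Serpinb1a (171 ± 16.8 TPM) moved ahead of Serping1 (153 ± 18.1), with libraries that overlapped, Serpinf1 (93.3 ± 3.30) ahead of Serpine2 (86.7 ± 2.61), and Plaur ahead of Plau.

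**Figure D2:**
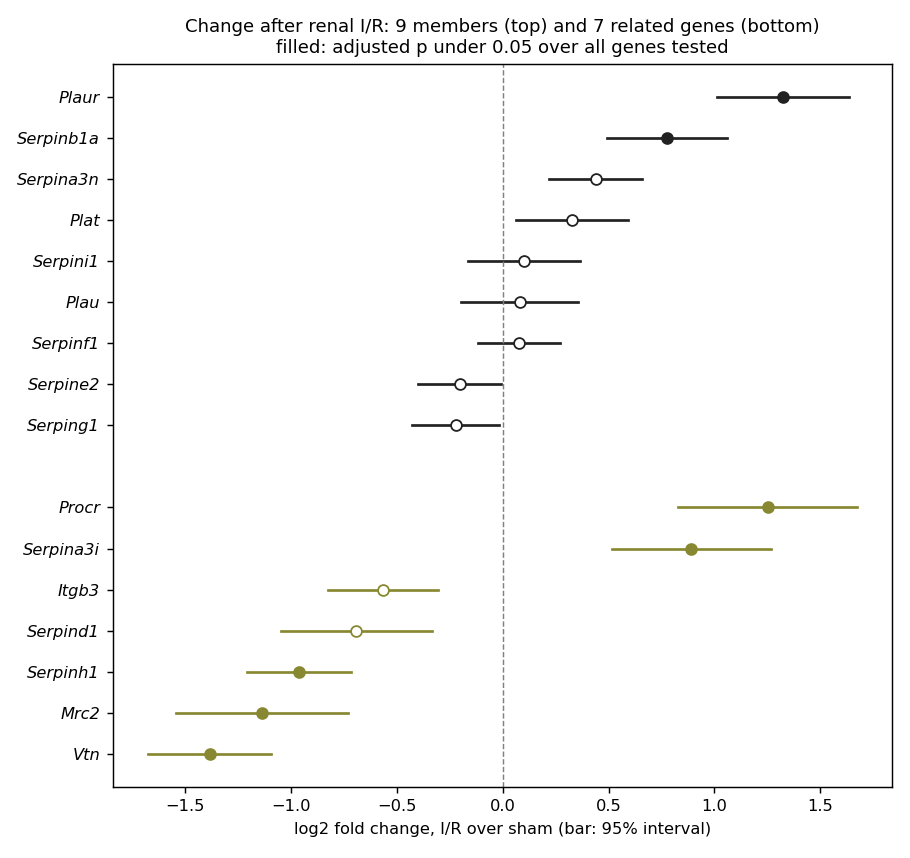
Log2 fold change of I/R over sham (horizontal axis) with its 95% interval for the 9 genes and, below them, for 7 related genes. Filled points passed the test over all genes. Plaur (1.32) and Serpinb1a (0.78) are filled above, and of the related genes Procr (1.25) lies farthest to the right and Vtn (-1.38) farthest to the left.

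Beyond the 6 serpins among the 9, 62 other serpin symbols were read from the table. Of these 16 passed the filter on low counts, and 1 was called higher (Serpina3i) and 1 lower in edgeR's test, against 1.15% of all genes tested. Unadjusted edgeR p was under 0.05 for 4 of the 16, 1 higher and 3 lower, against 10.5% of all genes tested. Their median log2 fold change was 0.00. DESeq2 called 1 higher and 2 lower, and limma-voom 0 higher and 1 lower. The one that fell in edgeR's test was Serpinh1, which encodes the collagen chaperone of the endoplasmic reticulum and inhibits no protease. It stood at 84.0, 99.98 and 91.8 CPM in sham mice and at 47.5, 51.7 and 42.5 CPM in I/R mice (log2 fold change -0.96 ± 0.11, edgeR adjusted p = 0.00206). The highest I/R library lay well below the lowest sham library. Serpinh1 missed the threshold against sham 2 alone (-1.11, edgeR adjusted p = 0.0513). Serpind1, which encodes the thrombin inhibitor heparin cofactor II, stood at 9.85 ± 1.33 CPM in sham mice and 6.11 ± 0.857 CPM in I/R mice (edgeR adjusted p = 0.0906). It was called lower by DESeq2 (adjusted p = 0.0304) and by edgeR without the filter on low counts (0.0164). The most abundant of all serpins, Serpinb6a, stood at 477 ± 45.5 and 479 ± 32.9 CPM, a log2 fold change of 0.01 that turned negative, by at most 0.05, under 6 alternatives that include upper-quartile normalization.

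In the wider plasminogen pathway 2 genes fell. Of 32 listed genes 24 were tested, and edgeR and limma-voom each called 0 higher and 2 lower, with a median log2 fold change of 0.03. DESeq2 called 2 higher and 3 lower. With an unadjusted edgeR p under 0.05 there were 8 of the 24, 5 higher and 3 lower, against 10.5% of all genes tested. Plasminogen itself (Plg) had at most 2 counts in any library, and Serpinf2, which encodes an inhibitor of plasmin, had 0. Vtn encodes vitronectin, the plasma and matrix protein that binds the urokinase receptor. It fell from 16.7, 20.1 and 20.6 CPM in sham mice to 7.36, 7.85 and 6.80 CPM in I/R mice (log2 fold change -1.38 ± 0.13, edgeR adjusted p = 0.000771). The groups lay far apart, and the I/R libraries were within 1 CPM or so of one another.

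Mrc2 encodes a collagen uptake receptor that associates with the urokinase receptor. It fell from 16.9 ± 3.61 to 7.68 ± 1.28 CPM (log2 fold change -1.14 ± 0.18, edgeR adjusted p = 0.0156), and the call was lost without I/R 3 (edgeR adjusted p = 0.098) and against sham 2 alone (0.0507). Itgb3, the beta chain of the vitronectin receptor, stood at 34.0 ± 3.00 CPM in sham mice and 23.0 ± 2.24 CPM in I/R mice. Its log2 fold change of -0.56 missed the threshold in edgeR's test (adjusted p = 0.0546) and passed it in DESeq2 (adjusted p = 0.00432) and under 4 other settings of edgeR. Vldlr encodes a lipoprotein receptor family member that takes up complexes of urokinase with its inhibitors. It stood at 33.8 ± 2.03 CPM in sham mice and 50.6 ± 7.76 CPM in I/R mice (log2 fold change 0.58, edgeR adjusted p = 0.0667). DESeq2 called it higher (adjusted p = 0.0052), as did edgeR with robust dispersion (0.0408) and without the filter on low counts (0.00321). Vldlr was not called when any 1 library was left out (edgeR adjusted p 0.051 to 0.304).

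The fall of Serpinh1, Vtn and Mrc2 went with that of connective tissue markers. The summed fibroblast and meningeal list, which includes Ptgds, Dcn and Col1a1, stood at 1076 to 1301 CPM in sham mice and at 607 to 731 CPM in I/R mice, and 11 of its 13 members were called lower. No member was at 0 in all libraries. Other summed lists also stood lower in I/R. The Schwann cell list stood at 6830 to 7072 CPM in sham mice and 5834 to 6542 CPM in I/R mice, with 0 of 8 called by edgeR. The red cell list stood at 183.6 to 273.9 CPM in sham mice and 53.75 to 88.17 CPM in I/R mice, with 5 of 6 tested members called lower. The satellite glia list overlapped between the groups, at 3029 to 3331 CPM in sham mice and 2392 to 3334 CPM in I/R mice. Of its 7 members edgeR, DESeq2 and limma-voom each called 0 higher and 1 lower. Unadjusted edgeR p was under 0.05 for 4 of the 7, 2 higher and 2 lower. The part of any of these cells in the fall of the 3 genes, and in the lower values of Serping1 and Serpine2, was not tested.

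A list of 13 genes held thrombin (F2), its receptors and clotting genes linked to them, and 9 were tested. Of these 1, Procr, rose and 0 fell in edgeR's test or with limma-voom (median log2 fold change -0.07). DESeq2 called 1 higher and 1 lower. With an unadjusted edgeR p under 0.05 there were 4 of the 9, 2 higher and 2 lower, against 10.5% of all genes tested. Procr, which encodes the endothelial protein C receptor, rose from 1.67, 2.10 and 2.26 CPM in sham mice to 5.09, 4.31 and 4.97 CPM in I/R mice (log2 fold change 1.25 ± 0.19, edgeR adjusted p = 0.0111). The groups did not overlap. Leaving out sham 1 or I/R 3 ended the call of Procr (edgeR adjusted p 0.0705 and 0.0619), and so did the fit against sham 2 alone (0.287) and the muscle covariate (0.241). The summed list of endothelial and mural cell markers stood at 373 to 390 CPM in sham mice and 371 to 408 CPM in I/R mice, with 0 of 10 called by any of the 3 tools and 2 at an unadjusted p under 0.05. F3, the tissue factor gene, stood at 9.47 ± 1.97 CPM in sham mice and 13.9 ± 2.07 CPM in I/R mice (edgeR adjusted p = 0.254). The protease-activated receptor genes F2r, F2rl1, F2rl2 and F2rl3 overlapped between the groups (edgeR adjusted p 0.728 to 0.895). F2 itself had at most 8 counts in any library.

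**Figure D3:**
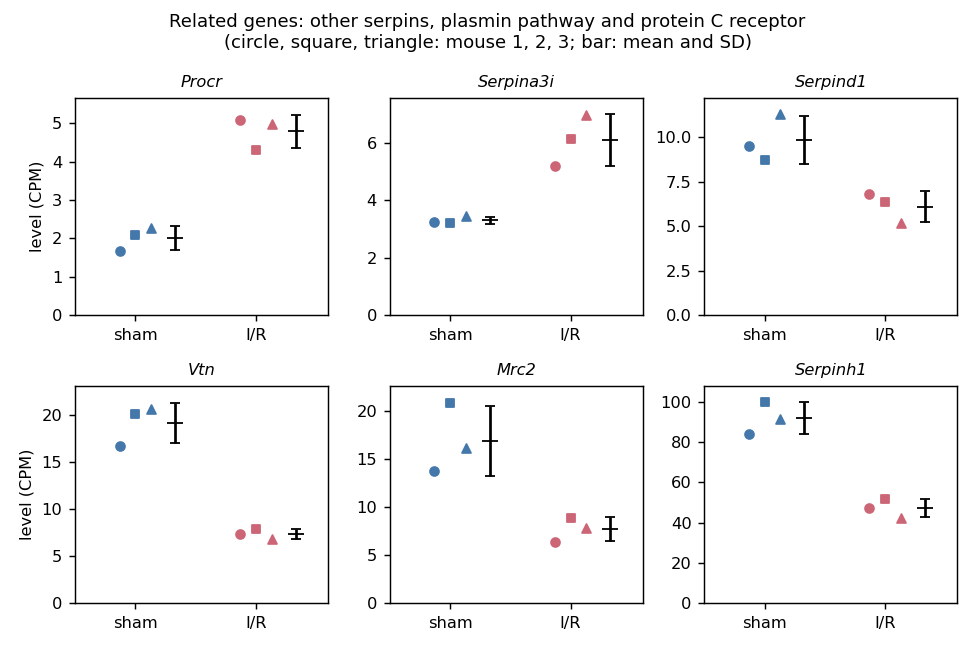
Level (CPM, linear axes from 0) of Procr, Serpina3i, Serpind1, Vtn, Mrc2 and Serpinh1 in the 3 sham (blue) and 3 I/R (red) libraries, with group mean and SD. The first 2 stood higher and the last 4 lower in every I/R library, with Vtn at 16.7 to 20.6 CPM in sham mice and 6.80 to 7.85 CPM in I/R mice.

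The genes whose pattern over the 6 libraries lay closest to each of the 9 were taken by the root mean square difference of centred log2 CPM, among 11319 genes whose mean reached 5 CPM. For Plaur these were Adam8, a membrane metalloprotease (difference 0.08), Star, which moves cholesterol into mitochondria (0.12), and Sdc1, the heparan sulfate proteoglycan syndecan-1 (0.13). Adam8 stood at 10.1, 12.5 and 10.6 CPM in sham mice and 24.4, 25.8 and 26.6 CPM in I/R mice, so that sham 2 was the highest sham library in both genes. For Serpinb1a the closest were Lgals3, which encodes galectin-3 (0.08), Camk1 (0.09) and Galnt16 (0.11), and for Serpina3n they were Gfra1, a GDNF receptor, Wnt2b and Txnip (all 0.04). Lgals3 stood at 12.9 ± 0.987 CPM in sham mice and 26.0, 18.3 and 18.3 CPM in I/R mice, highest in I/R 1 like Serpinb1a. The libraries are the same for all genes, and genes that differ little between them lie close to many others, so these distances are a description.

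**Figure D4:**
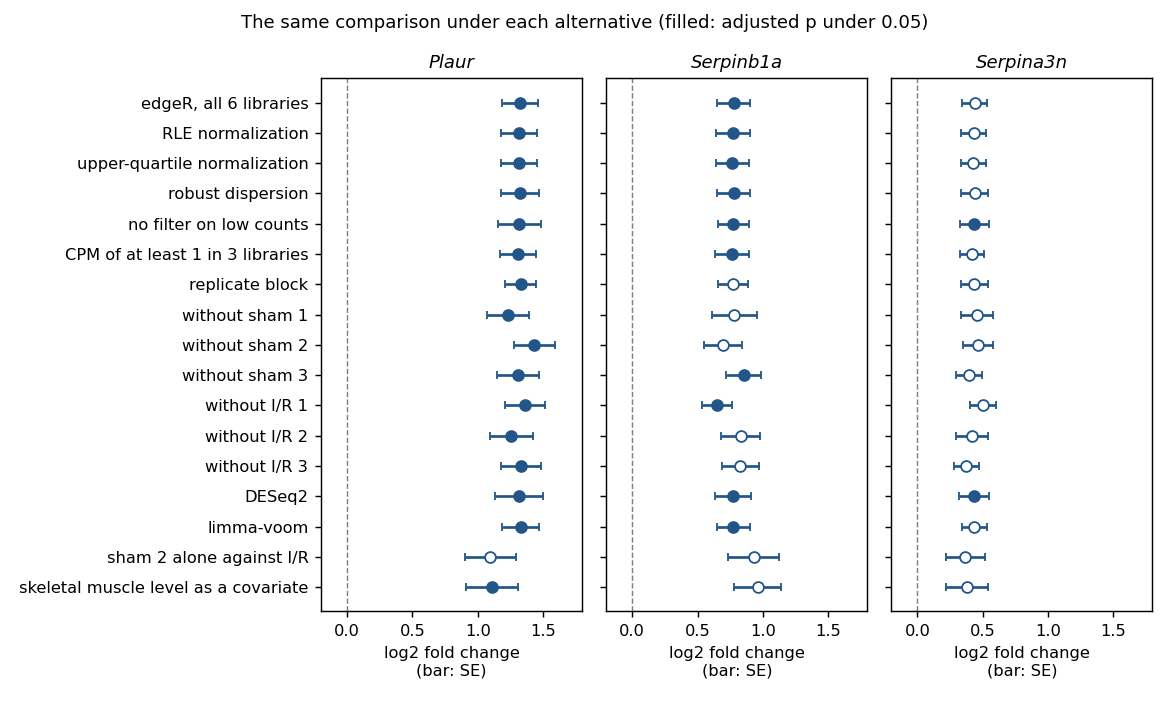
Log2 fold change of I/R over sham with its SE for Plaur, Serpinb1a and Serpina3n under each fit (rows), filled where the adjusted p was under 0.05. Every point lies to the right of 0. Plaur is filled in all rows but that of sham 2 alone, Serpinb1a is open in 7 rows, and Serpina3n is filled for DESeq2 and without the filter on low counts.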

How the data were processed

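RNA sequencing libraries from 6 mice (3 sham, 3 I/R) were compared. Per the labels' protocols, TRIzol RNA was made into stranded mRNA libraries, and the tools in the submitters' processing notes are fastp, HISAT2 and StringTie, with GRCm39 as the build and no role or version. The counter and its strand setting were not given in the sources used here. Unscaled expected counts per gene were deposited by the authors. Between 10.7% and 11.5% of values per library were not whole and were rounded. The authors' 2 columns of group means were not used, and their gene lengths served for TPM.

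Genes were tested with edgeR 4.0.16 in R 4.3.3 (quasi-likelihood test, TMM, filterByExpr, Benjamini-Hochberg over 16346 genes, no covariate). CPM used TMM-scaled library sizes, and 3 counts, the most that a count of 0 allows, equal 0.137 to 0.154 CPM. This limit covers counting error only. SE came from the log2 fold change and F. The script was tested on simulated data, with 50 genes changed by each fold. Of these, edgeR's test called 38% at 1.5-fold, 80% at 2-fold, 98% at 4-fold and 74% at 0.5-fold. Most 1.5-fold changes were thus missed. Replicate libraries differed by more than sampling noise (chi-square per degree of freedom 4.11 to 30.5) and were counted separately. Alternatives were DESeq2 1.42.0, limma-voom (limma 3.58.1), normalization by RLE or upper quartile, robust dispersion, other filters, a replicate block and leaving out each library. Sham 2 alone, a muscle covariate and summed copies were added after seeing the data.

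The genes and lists were chosen with earlier results of these data known. The text names the 9 genes and, from each list, up to 4 genes of smallest p and those called. For other serpins it takes up to 6 of smallest p and the 3 most abundant. The 3 genes of most like pattern were taken for each of the 9 and are named for Plaur, Serpinb1a and Serpina3n only. Some others that the rule takes are given as counts only. A further gene is not reported here and was left out of the lists, though it stayed in the fit. Promoters come from RefSeq on GRCm38.p6, which differs from the build in the notes, so they serve for sequence only.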

Additional observations from a re-analysis of the deposited data

How the results depend on the processing

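Over all genes, 188 were called. The count was 499 without the filter on low counts, 312 in DESeq2, 63 with the replicate block, 76 with the muscle covariate and 32 with sham 2 alone, where the lone sham library is assumed to vary like the I/R group. Leaving out 1 library gave 87 (without I/R 2) to 181, with 93 without sham 1 and 98 without I/R 3. Of the 9 genes, 2 were called. The count was 1 with the replicate block, 1 with the muscle covariate, 0 with sham 2 alone, and 1 to 2 when 1 library was left out. It was 1 when any one of sham 1, sham 2, I/R 2 and I/R 3 was missing. Serpinb1a lost its call with the block (log2 fold change 0.77, adjusted p = 0.0872), the muscle covariate (0.96, 0.058) and sham 2 alone (0.93, 0.212), and ran from 0.65 to 0.85 with 1 library left out. Plaur lost its call with sham 2 alone (1.10). Serpina3n was called in DESeq2 (0.43) and without the filter (0.43). The replicate numbers did not pair the samples (correlations of same-numbered deviations -0.106, 0.135 and -0.123), not every sample correlated best with its own number, the block also ended the calls of Procr, Serpina3i, Mcpt4, Cma1, Wfdc1 and Pamr1 (adjusted p 0.101 to 0.164), and the cause of these changes was not tested.

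Values close to 0 changed sign. With 1 library left out, Serpini1 ran from -0.0051 (without sham 2) to 0.22, C1ra from -0.17 to 0.067 (without I/R 1), Pnpla2 from -0.034 (without sham 3, and -0.0048 without I/R 2) to 0.18, Serpina3g from -0.066 to 0.026 (without sham 3, and 0.0053 without I/R 1) and Serpinb6a from -0.053 (without sham 2) to 0.085, with values below 0 also without sham 1 (-0.010), I/R 1 (-0.041) or I/R 2 (-0.010). Plau was at -0.0095 with sham 2 alone. Rpsa was at 0.0031 with the muscle covariate. Serpina3g was at 0.023 with the muscle covariate and 0.033 with sham 2 alone. Serpinb6a was at -0.0019 with upper-quartile normalization and -0.0083 with a CPM of at least 1 in 3 libraries. By CPM without length, Serpine2 ranked 3, Serpini1 4, Serpinb1a 5 and Serpinf1 6 in sham. Of the 9 genes, Serpine2, Serpinf1, Serping1 and Plat kept their direction and stayed short of the threshold in all 16 alternatives run.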

Other observations

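Other genes that cut proteins or block such cutting also differed between the groups. Of 28 listed inhibitors outside the serpin family, not all of them secreted, 22 were tested. EdgeR called 1 higher and 1 lower, with a median log2 fold change of 0.03. DESeq2 called 1 higher and 2 lower. Wfdc3, of the whey acidic protein family of small inhibitors, rose from 0.393, 0.300 and 0.206 CPM in sham mice (8, 6 and 4 counts) to 3.41, 2.71 and 2.01 CPM in I/R mice (69, 56 and 44 counts), with adjusted p = 0.00169 in edgeR's test, and 0.121 against sham 2 alone. Wfdc1, of the same family, fell from 4.34 ± 0.448 to 2.21 ± 0.265 CPM (edgeR adjusted p = 0.0393), and lost that call whichever library was left out (0.088 to 0.157), against sham 2 alone (0.38) and with the muscle covariate (0.233). Itih2, which encodes a heavy chain of the inter-alpha-trypsin inhibitors, stood at 2.55 ± 1.05 CPM in sham mice and 0.850 ± 0.335 CPM in I/R mice (edgeR adjusted p = 0.115), and was called lower by DESeq2 (adjusted p = 0.015) and by edgeR without the filter on low counts (0.00166). Timp1, an inhibitor of metalloproteases, stood at 1.06 ± 0.294 CPM in sham mice and 2.21 ± 0.574 CPM in I/R mice (edgeR adjusted p = 0.188).

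Among 10 leukocyte serine protease genes 3 were tested, all of them known from mast cells, and Mcpt4 and Cma1 were called lower. The third, the tryptase gene Tpsb2, stood at 1.55 ± 0.710 CPM in sham mice and 0.481 ± 0.187 CPM in I/R mice (edgeR adjusted p = 0.15), and was called lower without the filter on low counts (0.00978). Mcpt4 fell from 1.38, 2.00 and 2.78 CPM in sham mice to 0.593, 0.436 and 0.456 CPM in I/R mice (log2 fold change -2.04 ± 0.34, edgeR adjusted p = 0.0197), and Cma1, the mast cell chymase gene, from 1.36 ± 0.268 to 0.290 ± 0.136 CPM (edgeR adjusted p = 0.0267). Leaving out any one of sham 2, sham 3, I/R 2 and I/R 3 ended the call of Mcpt4 (edgeR adjusted p 0.0557 to 0.131), and leaving out any library but I/R 1 ended that of Cma1 (0.0793 to 0.127). Both calls were also lost against sham 2 alone (0.24 and 0.287) and with the muscle covariate (0.129 and 0.0915). The summed mast cell list overlapped between the groups, at 101.9 to 120.6 CPM in sham mice and 95.9 to 121.6 CPM in I/R mice, with 2 of its 5 tested members called, both lower. Most of that sum came from Kit, which stood at 93.9 to 120.3 CPM over the 6 libraries. Of 34 tested genes with a Trypsin domain in the authors' Pfam column, edgeR, DESeq2 and limma-voom called 0 higher. In edgeR's test 3 fell, Mcpt4, Cma1 and Pamr1 (log2 fold change of Pamr1 -1.13, edgeR adjusted p = 0.0389). With an unadjusted edgeR p under 0.05 there were 14 of the 34, 5 higher and 9 lower, against 10.5% of all genes tested. Pamr1 was chosen after its value was seen, and its call was lost whichever library was left out, against sham 2 alone (0.437), with the muscle covariate (0.273) and in DESeq2 (0.0525). Plaur was the 1 gene called, and was higher, among 9 tested genes with a u-PAR/Ly-6 domain.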
